A study of Mus musculus with 2 samples.

Results

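Expression of 10 genes for heterochromatin and retrotransposon silencing factors was compared between E14 and Sox2 T258A mouse embryonic stem cells (ESCs) by RNA-seq. The genes were Trim28, Setdb1, Atf7ip, Daxx, Atrx, Cbx1, Cbx3, Cbx5, Suv39h1 and Suv39h2, chosen by symbol, and all 10 were found among the 24532 genes of the table. E14 is an established mouse ESC line and carries wild-type Sox2. The Sox2 T258A cells are E14 cells in which CRISPR/Cas9 with a single-stranded DNA donor replaced a threonine of Sox2 by alanine on 1 allele, so that this residue of the edited protein cannot carry the sugar O-GlcNAc, while the other allele is wild type. The mutant is a clone grown from a single cell. It was derived and kept in serum and LIF with the inhibitors PD0325901 and CHIR99021 and was used in the passages after their removal, whereas E14 was grown in serum and LIF. Genotype, clonal origin and culture history thus cannot be told apart.

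Each genotype had 1 library, and no difference below has a replicate check or a p-value. The read counts summed to 60263536 in E14 and 44609228 in Sox2 T258A cells. Intervals are 95% intervals from the read counts and cover counting error only, since reads copied by PCR are not independent molecules. In bulk RNA a lower level per cell and fewer expressing cells cannot be told apart. All 10 ESC markers examined reached a TPM of 10 in either library, with a summed TPM of 12430 in E14 and 9285 in Sox2 T258A cells. The largest part of this sum was Dppa5a, with a TPM of 6877 and 4429. Pou5f1 had a TPM of 1725 and 1759, Sox2 had 372.5 and 274.2, and Nanog had 526.9 and 251.3. Of the 10 ESC markers, 3 had a higher TPM in Sox2 T258A cells. The summed TPM of 6 primitive endoderm markers was 46.2 and 17.1, that of 6 trophoblast markers 63.1 and 35.9, that of 7 fibroblast markers 43.1 and 16.6, and that of 8 early lineage markers 22.1 and 114.4. Within the trophoblast and fibroblast lists the genes went in opposite directions. Tfap2c had a TPM of 50.9 and 16.1 and Thy1 had 40.1 and 11.4, and these genes made up most of each sum, whereas Cdx2 had 0.474 and 12.2, Gata3 0.322 and 0.733, Col3a1 0.0799 and 1.28, and Col1a2 0.259 and 0.985. The trophoblast marker Elf5 and the fibroblast markers Dcn, Lum and Postn had 0 reads in both libraries. The part of these cell type markers in the differences below was not tested.

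Heterochromatin is compact, mostly silent chromatin that carries methylation on lysine 9 of histone H3 (H3K9). In ESCs, where DNA methylation can be low, endogenous retroviruses are kept silent largely through this mark. KRAB zinc finger proteins bind the viral DNA and recruit Trim28 (also called Kap1), a scaffold that brings in the methyltransferase Setdb1 and its partner Atf7ip. The heterochromatin protein 1 (HP1) family, encoded by Cbx1, Cbx3 and Cbx5, binds methylated H3K9. Suv39h1 and Suv39h2 write the trimethyl mark at repeats around centromeres, and the Atrx-Daxx pair deposits the histone variant H3.3 at telomeres and retroelements.

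Promoter sequences are shown for 3 members. Atrx was the member with the largest difference between libraries, Setdb1 was the member with the smallest, and Cbx5 shares its promoter region with a gene on the opposite strand. The RefSeq table (GRCm38.p6) had promoter windows for all 10 members. The sequences are the bases before the start site, 5′ to 3′ on the strand of the gene (the minus strand in each case), without bases that GENCODE M21 places in an exon of the gene. They lie at chrX:105929404-105929622 for Atrx, chr3:95357203-95357452 for Setdb1 and chr15:103239853-103240102 for Cbx5. Capitals mark the CCAAT box, a common promoter element, on either strand (CCAAT or ATTGG).
Atrx: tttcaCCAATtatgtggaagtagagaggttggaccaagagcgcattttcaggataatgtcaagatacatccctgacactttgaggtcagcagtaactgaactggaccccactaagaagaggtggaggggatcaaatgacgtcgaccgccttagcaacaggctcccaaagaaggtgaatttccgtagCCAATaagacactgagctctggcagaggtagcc
Setdb1: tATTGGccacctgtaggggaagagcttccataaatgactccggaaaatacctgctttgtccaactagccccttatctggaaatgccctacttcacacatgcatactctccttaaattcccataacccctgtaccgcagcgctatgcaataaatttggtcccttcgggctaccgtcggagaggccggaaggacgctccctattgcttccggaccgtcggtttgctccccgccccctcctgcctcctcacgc
Cbx5: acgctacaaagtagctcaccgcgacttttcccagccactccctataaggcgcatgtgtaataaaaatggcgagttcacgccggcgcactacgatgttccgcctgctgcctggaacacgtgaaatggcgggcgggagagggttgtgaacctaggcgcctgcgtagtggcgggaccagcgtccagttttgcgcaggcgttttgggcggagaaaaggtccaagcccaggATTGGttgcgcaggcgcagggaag

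Within 250 bases before its start, Atrx had 3 CCAAT boxes, of which 2 lie in the stretch printed. Setdb1 and Cbx5 had 1 each. Over all 32851 promoter windows of this length, 33.8% held at least 1. The GC box GGGCGG, searched on both strands, was absent from the Atrx window and occurred in 32.7% of all windows, once in Setdb1 and 2 times in Cbx5. Of the letters bound by Sox proteins, ACAATG was found in none of the 15 windows of the 10 members (10.7% of all windows), and ACAAAG was found in 1 window of Setdb1, 1 of Cbx3 and 2 of Cbx5 (16.5% of all windows). These are matches of letters and not binding sites. The 3 start windows differed in base composition, with 48.4% G and C and 6 CpG in Atrx, 54.4% and 13 in Setdb1, and 59.2% and 22 in Cbx5, compared with medians of 52.4% and 6 over all windows.

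The silencing factors as a group were moderately higher in Sox2 T258A cells, and 1 of them, Atrx, passed 2-fold. The comparison used TPM, which is scaled to transcript length and library, and was limited to genes that reached a TPM of 10 in either library, with a threshold of more than 2-fold. All 10 members passed the filter. Of these, 1 was more than 2-fold higher and 0 were more than 2-fold lower in Sox2 T258A cells. Among all 9094 genes past the filter, 8.24% differed by more than 2-fold, 4.17% being higher (379 genes) and 4.07% lower (370 genes). This split rested on the scaling of the libraries, since with FPKM, which moved the median of all genes by -0.14 on the log2 scale, 278 genes were higher and 496 lower. Atrx was past 2-fold, and the same 9 members were higher, on either scale. The TPM was higher in Sox2 T258A cells for 9 of the 10 members, compared with 57.3% of all genes. More than 1.5-fold higher were 2 members, Atrx and Cbx3, compared with 14.2% of all genes. The median log2 ratio of the 10 members was 0.45, whereas that of all genes past the filter was 0.08. The summed TPM of the members was 1444 in E14 and 2010 in Sox2 T258A cells, of which Trim28 alone contributed more than the other 9 members together.

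**Figure D1:**
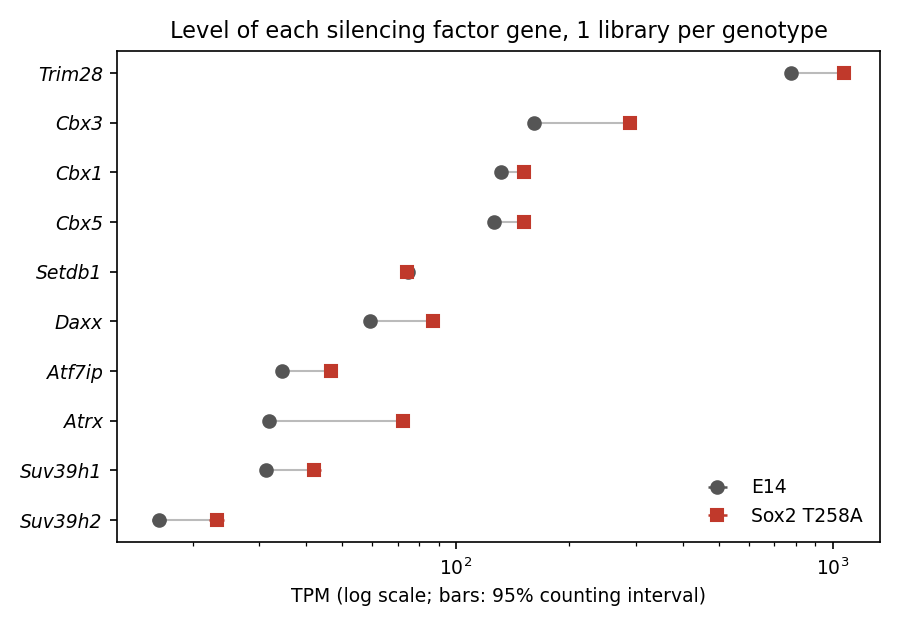
TPM (log axis) of each of the 10 genes in the E14 library (circles) and the Sox2 T258A library (squares), with 95% counting intervals that are mostly narrower than the symbols. Trim28 lies highest in both libraries, at 776.3 and 1071, Setdb1 is nearly level, and the widest gap is that of Atrx, from 31.8 to 72.6.

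Trim28, the corepressor that KRAB zinc finger proteins recruit, lies on chromosome 7 (12999114 to 13031035, GRCm38, plus strand). It had 79268 reads and a TPM of 776.3 in E14, and 73303 reads and a TPM of 1071 in Sox2 T258A cells. It was the most highly expressed member and ranked above 98.3% of the genes past the filter in E14 and 98.7% in Sox2 T258A cells. The log2 ratio was 0.46 (0.45 to 0.48), which is 1.38-fold higher. The extent given here is that of GENCODE and includes Zbtb45 on the opposite strand, with 876 and 1227 reads, far fewer than Trim28 itself. Slc27a5 starts 922 bases from the start of that extent, on the opposite strand. It had 41 and 14 reads and was under the filter. RefSeq places the start of Trim28 further in, at 13024152. From that start, neither gene overlaps Trim28 or begins within 1 kb of it.

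Setdb1, which trimethylates H3K9 at the sites that Trim28 marks out, did not follow. The gene, on chromosome 3 (95323525 to 95357202, minus strand), had 10901 reads and a TPM of 74.8 in E14 and 7218 reads and a TPM of 74.0 in Sox2 T258A cells. Its log2 ratio of -0.02 (-0.06 to 0.03) was the only one among the members whose interval included no difference. Relative to Setdb1, the level of Trim28 went from 10.4 to 14.5 times, a difference of 0.48 on the log2 scale (0.44 to 0.53). This measure does not depend on how the libraries are scaled to each other, but it was 0.79 when the trend of the ratios with GC content and transcript length was removed. The end of Setdb1 overlaps the end of Cers2 on the opposite strand, which had 4529 and 2563 reads, and since the use of strand in counting is not stated, some reads could belong to either gene.

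Atf7ip, which stabilizes Setdb1 in the nucleus, had 4916 reads and a TPM of 34.5 in E14 and 4454 reads and a TPM of 46.6 in Sox2 T258A cells. It lies on chromosome 6 (136506167 to 136610862, plus strand). Its log2 ratio was 0.44 (0.38 to 0.49), and relative to Setdb1 it was 0.45 higher on the log2 scale (0.38 to 0.52). After removal of the GC and length trend that difference was 0.18, and Atf7ip itself was 0.01, so the gap between these partners of a complex was mostly lost under the correction. The transcript length that the correction used for Atf7ip is uncertain.

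Atrx, a chromatin remodeler of the Snf2 family encoded on the X chromosome (105797615 to 105929403, minus strand), differed most. It had 10275 reads and a TPM of 31.8 in E14 and 15690 reads and a TPM of 72.6 in Sox2 T258A cells. The log2 ratio was 1.19 (1.15 to 1.22), which is 2.28-fold higher and above 97.3% of the genes past the filter. Atrx had more reads in the smaller library even before any scaling (1.53 times). In E14 it ranked eighth among the members, within counting error of Suv39h1, and in Sox2 T258A cells it ranked seventh, within counting error of Setdb1. The call was lost under 1 correction. Atrx has a transcript of 10275 bases, by coincidence the same figure as its read count in E14, with 39.5% G and C, and the median log2 ratio was 0.55 over the 453 genes of its length class and 0.34 over the 453 genes of its GC class (each being the extreme 1 of 20 classes). After the trend on GC content and length was removed, Atrx had a log2 ratio of 0.53 (1.45-fold), under 2-fold. The part of GC content and length in the difference of Atrx was not tested beyond this.

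Daxx, the H3.3 chaperone that works with Atrx, lies on chromosome 17 (33909414 to 33915590, plus strand). It had 4804 reads and a TPM of 59.0 in E14 and 4748 reads and a TPM of 87.0 in Sox2 T258A cells, with a log2 ratio of 0.56 (0.50 to 0.62). The ratio of Atrx to Daxx within a library went from 0.539 to 0.834, a difference of 0.63 on the log2 scale (0.56 to 0.70). This difference changed sign to -0.21 with the GC and length trend removed, and which partner differed more thus depended on that correction. Daxx has a shorter transcript than Atrx (2627 bases) that is richer in G and C (55.8%). The noncoding RNA gene BC051226, which starts 97 bases from Daxx on the opposite strand, had 302 and 145 reads and a log2 ratio of -0.48 (-0.77 to -0.19).

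**Figure D2:**
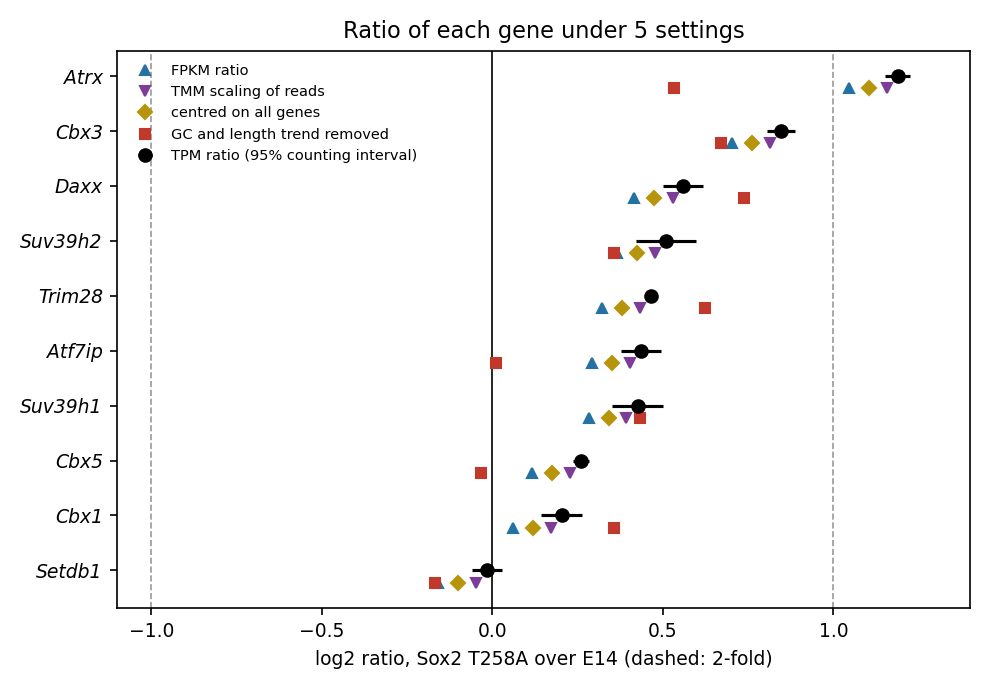
Log2 ratio of each gene (Sox2 T258A over E14) from TPM with its 95% counting interval (black), and under 4 other settings (colored symbols). Dashed lines mark 2-fold. Only Atrx passes 2-fold, at 1.19, and it drops to 0.53 with the GC and length trend removed, whereas Cbx3 stays between 0.67 and 0.85.

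The 3 HP1 genes differed unequally. Cbx3 (HP1 gamma), on chromosome 6 (51470360 to 51483704, plus strand), is the form also found along active genes. It had 9162 reads and a TPM of 161.3 in E14 and 11037 reads and a TPM of 290.0 in Sox2 T258A cells, with a log2 ratio of 0.85 (0.81 to 0.89), or 1.80-fold. Like Atrx, Cbx3 had more reads in the smaller library. Cbx1 (HP1 beta), on chromosome 11 (96789127 to 96808640, plus strand), had 5290 reads and a TPM of 131.8 in E14 and 4080 reads and a TPM of 151.7 in Sox2 T258A cells. Cbx5 (HP1 alpha), on chromosome 15 (103191544 to 103239816, minus strand), had 35100 reads and a TPM of 126.5 in E14 and 28146 reads and a TPM of 151.4 in Sox2 T258A cells. The log2 ratios were 0.20 (0.14 to 0.26) for Cbx1 and 0.26 (0.24 to 0.28) for Cbx5. Both were much smaller than that of Cbx3.

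Within the HP1 family, the balance moved toward Cbx3. Its share of the summed HP1 TPM was 38.4% in E14 and 48.9% in Sox2 T258A cells. The share of Cbx1 was 31.4% and 25.6%, and that of Cbx5 was 30.1% and 25.5%. Cbx3 relative to Cbx1 went from 1.22 to 1.91, a log2 difference of 0.64 (0.57 to 0.71), and relative to Cbx5 from 1.28 to 1.92, a log2 difference of 0.59 (0.54 to 0.63). After removal of the GC and length trend the first was 0.31 and the second 0.71, so Cbx3 stayed ahead of both. Between Cbx5 and Cbx1 the log2 difference was 0.06 (-0.01 to 0.12), but it was -0.39 after removal of that trend, so their balance depended on the correction. The corrected values that involve Cbx5 rest on a transcript length that is uncertain. By TPM, their levels in Sox2 T258A cells were within counting error of each other. The summed HP1 TPM was 419.6 in E14 and 593.2 in Sox2 T258A cells. RefSeq lists 6 pseudogenes named after Cbx3, of which 0 are in the gene table, and how reads shared with them were counted is not stated, so the level of Cbx3 is uncertain to that extent.

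**Figure D3:**
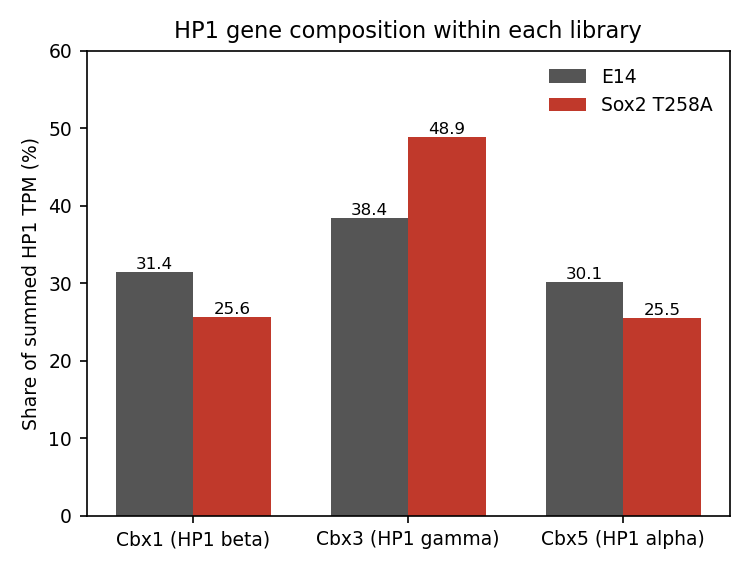
Share of the summed TPM of Cbx1, Cbx3 and Cbx5 taken by each gene, in percent, in the E14 library (grey) and the Sox2 T258A library (red). Cbx3 takes 38.4% in E14 and 48.9% in Sox2 T258A cells, and the other two take smaller shares in the latter.

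Cbx3 and Cbx5 each start next to a gene for an abundant RNA-binding protein on the opposite strand. The start of Hnrnpa2b1 lies 466 bases from that of Cbx3. Hnrnpa2b1 had 52106 reads and a TPM of 731.7 in E14 and 50633 reads and a TPM of 1065 in Sox2 T258A cells (log2 ratio 0.54, 0.52 to 0.56), in the same direction as Cbx3 but by less. The start of Hnrnpa1 lies 616 bases from that of Cbx5, across the promoter region printed above. Hnrnpa1 had 7809 reads and a TPM of 142.8 in E14 and 31172 reads and a TPM of 867.4 in Sox2 T258A cells (log2 ratio 2.60, 2.57 to 2.64). Hnrnpa1 was thus more than 2-fold higher while Cbx5 was not. Hnrnpa1 is known for many processed copies in the genome, and since the treatment of shared reads is not stated, its value is uncertain.

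The genes of the 2 Suv39h methyltransferases, which make the H3K9 trimethylation that HP1 binds at centromeric repeats, were the members with the fewest reads. Suv39h1, on chromosome X (8061171 to 8074760, minus strand), had 3073 reads and a TPM of 31.4 in E14 and 2765 reads and a TPM of 42.1 in Sox2 T258A cells. Suv39h2, on chromosome 2 (3455815 to 3475031, minus strand), had 2175 reads and a TPM of 16.3 in E14 and 2076 reads and a TPM of 23.2 in Sox2 T258A cells. The log2 ratios were 0.43 (0.35 to 0.50) and 0.51 (0.42 to 0.60). Suv39h2 took 34.2% of their summed TPM in E14 and 35.5% in Sox2 T258A cells. The difference between their log2 ratios was 0.08 (-0.03 to 0.20), or -0.08 with the GC and length trend removed. It was thus within counting error, and its sign depended on the correction. Suv39h2 overlaps Dclre1c on the opposite strand (970 and 713 reads), and its reads are uncertain to that extent.

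Ordered by TPM, the members in E14 ran from Trim28 through Cbx3, Cbx1, Cbx5, Setdb1, Daxx, Atf7ip, Atrx and Suv39h1 to Suv39h2. All neighbors in this order differed beyond counting error except Atrx and Suv39h1. In Sox2 T258A cells the order was Trim28, Cbx3, Cbx1, Cbx5, Daxx, Setdb1, Atrx, Atf7ip, Suv39h1 and Suv39h2. There, Cbx1 and Cbx5 were within counting error of each other, as were Setdb1 and Atrx. Daxx passed Setdb1 and Atrx passed Atf7ip, and the other positions were the same in both libraries.

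Ratios across the table moved with transcript length and GC content, and the members were set against genes of like properties. Over the 9047 genes past the filter with a matched transcript and reads in both libraries, Spearman's rho with the log2 ratio was 0.38 for length and -0.24 for GC content. This is a correlation across genes of a single pair of libraries, and genes are not independent replicates. Over 20 length classes the median log2 ratio ranged from -0.22 among short transcripts to 0.55 among the longest. Trim28, with 59.6% G and C, belongs to a class with a median of -0.09, and with the trend removed its log2 ratio was 0.62. Daxx was 0.74 and Cbx1 0.36 with the trend removed, above their TPM ratios. Atf7ip, with a transcript of 8059 bases, was 0.01, and Cbx5 was -0.03. Both values are uncertain, since the lengths used were not those behind the deposited TPM. Cbx5 (4537 bases) is near Setdb1 (4618 bases) in length. In E14, however, Cbx5 had 35100 reads at a TPM of 126.5, and Setdb1 had 10901 reads at 74.8. Atf7ip had 4916 reads at a TPM of 34.5, about as many reads per TPM as the shorter Setdb1. Cbx3 (0.67), Suv39h1 (0.43) and Suv39h2 (0.36) were higher in either case, and Setdb1 was -0.17. With this correction, 8 of the 10 members were higher, compared with 58.8% of 9048 genes. The number of members past 2-fold was 0, while 326 of these genes were more than 2-fold higher and 302 lower, so with 10 members a count of 0 is near the share over all genes. The median was 0.40, compared with 0.09 over all genes.

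**Figure D4:**
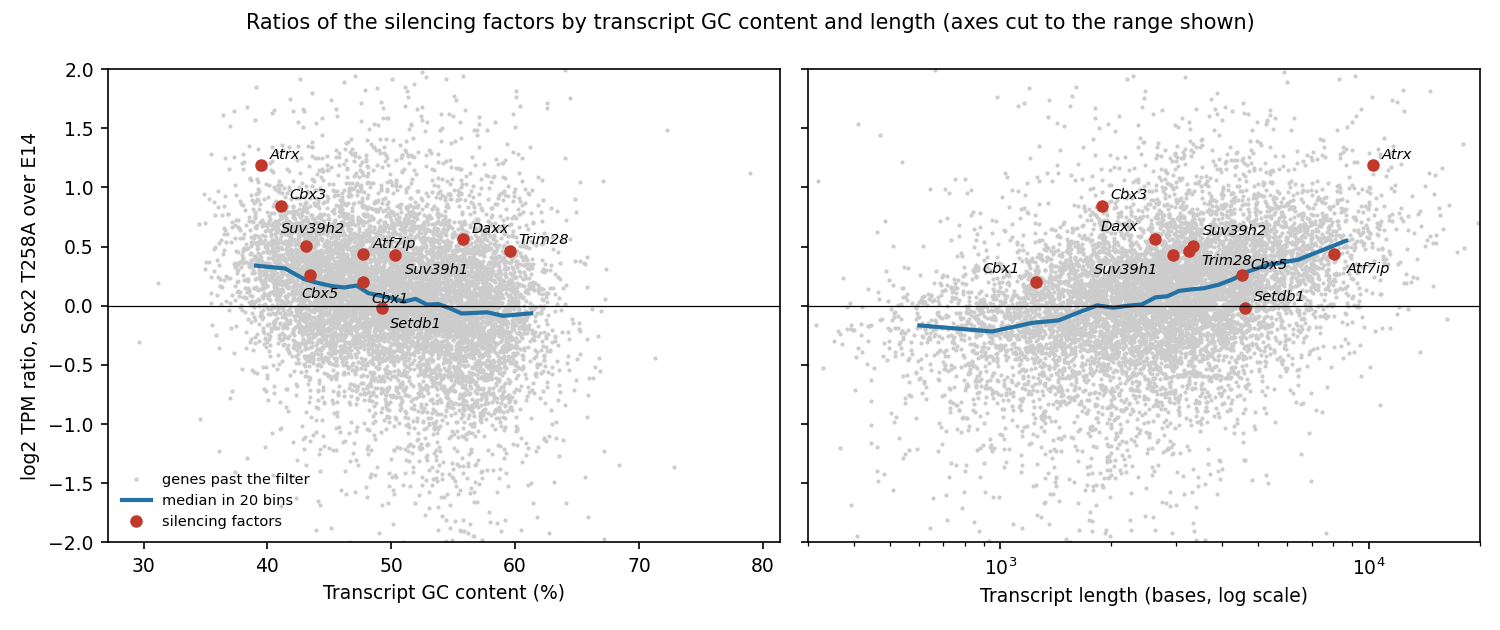
Log2 TPM ratio of the genes past the filter (grey points) against transcript GC content in percent (left) and transcript length in bases on a log axis (right), with the median in 20 bins (line) and the 10 silencing factors (red). The medians of the length bins range from -0.22 among short transcripts to 0.55 in the longest class, where Atrx lies. Atrx, Cbx3, Daxx, Cbx1, Trim28, Suv39h1 and Suv39h2 lie above the medians of both their GC bin and their length bin.

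The chromosomes of the members had medians from -0.14 (chromosome 15, which holds Cbx5) to 0.18 (chromosome X, which holds Atrx and Suv39h1). Relative to the 291 genes past the filter on chromosome X, Atrx was 1.0048 on the log2 scale, at the edge of 2-fold, and Suv39h1 was 0.24. Relative to the 396 genes of chromosome 15, Cbx5 was 0.40. Whether chromosome copy number differs between the clone and E14 was not tested.

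Other genes of these pathways were examined in 14 lists, of which 124 genes were in the table and 98 passed the filter. Of the 98, 6 were more than 2-fold higher and 0 more than 2-fold lower, and 81.6% had a higher TPM in Sox2 T258A cells. The 6 genes are 6.12% of the 98, near the 4.17% of all genes that were more than 2-fold higher, whereas 57.3% of all genes had a higher TPM. Of these 6, Zfp819 and Zfp459 passed the filter only through the Sox2 T258A library. So did Lrif1, Ubn2, Kdm1b and Gm8300 among the rest of the 98, whereas no gene of the 98 passed only through E14. The filter fixed the direction of these genes, and they count toward the 81.6% and the median below. The median log2 ratio of the 98 genes was 0.36, beside 0.45 for the 10 silencing factors and 0.08 for all genes. After removal of the GC and length trend their median was 0.30, and 4 of the 6 genes stayed past 2-fold.

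Of the other H3K9 methyltransferase genes and partners, 5 passed the filter and all 5 were higher by less than 2-fold (median 0.46, or 0.32 with the trend removed), from Setdb2 (0.27) to Ehmt2 (0.50), which encodes the G9a enzyme of H3K9 dimethylation. Ehmt2 had a TPM of 63.2 in E14 and 89.5 in Sox2 T258A cells. Under the filter, Prdm16 had 398 and 193 reads and Mecom had 9 and 47. Of the H3K9 demethylase genes, 9 passed the filter and 6 were higher, compared with 57.3% of all genes. They ran from Kdm4a (-0.36) to Jmjd1c (1.34). Their median was 0.22, compared with 0.08 for all genes, and with the trend removed both medians were 0.09. The median of 0.22 is the value of Kdm1b (TPM 9.89 and 11.5). Kdm1b passed the filter only through the Sox2 T258A library, which fixed its direction. Jmjd1c was the only one past 2-fold, with 11167 and 18934 reads and a TPM of 41.3 and 104.4, and it had a log2 ratio of 0.83 after that trend was removed. The 3 H4K20 methyltransferase genes had a median of 0.16. Among them are Suv420h1 and Suv420h2, whose mark follows H3K9 trimethylation at heterochromatin. Suv420h2 was the lowest of the 3 at -0.87 (TPM 135.4 and 74.0), while Suv420h1 was 0.30.

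Recruiters of Trim28 and genes of the HUSH complex, another silencing route for retroelements that depends on Setdb1, were examined as well. Of the KRAB zinc finger genes known to recruit Trim28, 7 passed the filter and all 7 were higher (median 0.75, or 0.58 with the trend removed). Over all genes past the filter, 57.3% were higher and the median was 0.08. Of the 2 genes of this list under the filter, 1 had a lower TPM in Sox2 T258A cells. Zfp819 was more than 2-fold higher, with 617 reads and a TPM of 8.11 in E14 and 1188 reads and a TPM of 23.3 in Sox2 T258A cells (log2 ratio 1.52, 1.38 to 1.67), and it was 1.60 with the trend removed. Zfp459 was also past 2-fold (1.30, 1.13 to 1.46, and 1.05 with the trend removed). It had 487 reads and a TPM of 4.63 in E14 and 801 reads and a TPM of 11.4 in Sox2 T258A cells. Both Zfp819 and Zfp459 thus passed the filter only through the Sox2 T258A library, where they were higher. The filter fixed their direction, and they count toward the 7 genes and the median. The log2 ratios of the others were 0.81 (Zfp568), 0.75 (Zfp932), 0.43 (Zfp445), 0.19 (Zfp809) and 0.06 (Zfp57). The lowest was Zfp57, the guardian of imprints, at 0.06. KRAB zinc finger genes form a large family of close relatives, so reads could be shared among them. Of the HUSH and Morc genes, 5 passed the filter and 4 were higher, with a median of 0.68 (0.21 with the trend removed), from Mphosph8 (-0.05) to Fam208a (0.87), the gene for the HUSH scaffold Tasor. With the trend removed Fam208a was 0.21. The TIF1 relatives Trim24 (0.16) and Trim33 (0.68) were both higher by less than 2-fold. The relative Trim66 was under the filter, with 612 reads and a TPM of 2.11 in E14 and 28 reads and a TPM of 0.140 in Sox2 T258A cells.

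Genes for chromatin assembly, deacetylation and HP1 partners were mostly higher by less than 2-fold. Among all genes past the filter, 57.3% were higher, and the median log2 ratio was 0.08 (0.09 with the trend removed). The 9 genes of histone H3.3 and its chaperones had a median of 0.26, from H3f3a (-0.20) to Dek (0.89), and 0.05 with the trend removed. The 6 genes of replication-coupled chromatin assembly were all higher, from Rbbp7 (0.16) to Pcna (0.63). Their median was 0.42, or 0.36 with the trend removed. Of the NuRD genes, 10 passed the filter and 7 were higher, from Mta3 (-0.30) to Gatad2b (0.72). Their median was 0.29, or 0.41 with the trend removed. The 13 HP1-binding and lamina-tethering genes had a median of 0.51 (0.38 with the trend removed). They ran from Emd (-0.23) to Smarcad1 (1.02, 0.98 to 1.06), a remodeler that acts with Trim28. Smarcad1 had a TPM of 50.7 and 102.6, at the 2-fold threshold within counting error, and 0.60 with the trend removed. Of the SUMO pathway genes, whose modifier links Trim28 to Setdb1, 15 passed the filter and 11 were higher, from Pias3 (-0.61) to Senp5 (0.49). Their median was 0.17, or 0.11 with the trend removed. The 6 DNA methylation partners had a median of 0.43 (0.32 with the trend removed). They ran from Dnmt3l (-0.39) to Dnmt3b, which was past 2-fold (TPM 67.5 and 150.4, log2 ratio 1.16). In the lists above, Ubn2 (H3.3 chaperones) and Lrif1 (HP1-binding) passed the filter only through the Sox2 T258A library, which fixed their direction.

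**Figure D5:**
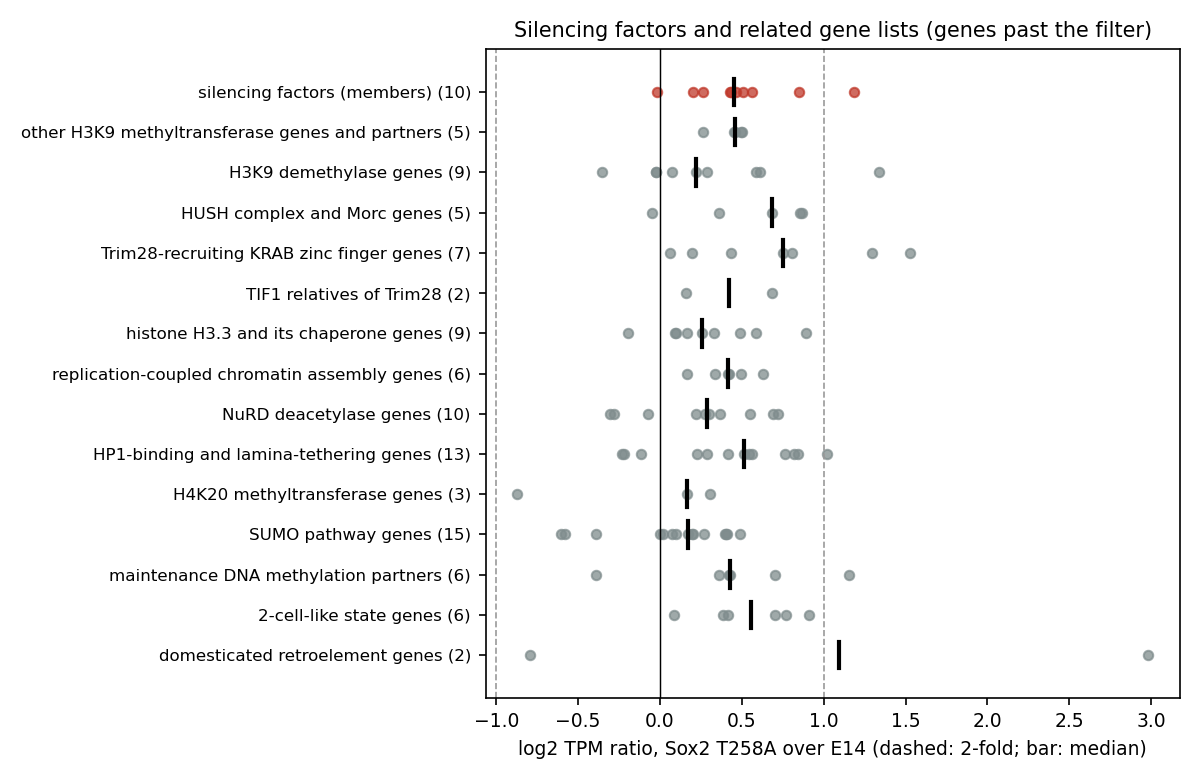
Log2 TPM ratio of every gene past the filter in the silencing factor group (red) and in 14 related lists (grey), with the number of genes in parentheses and the list median as a bar. Medians lie from 0.16 (H4K20 methyltransferase genes) to 0.75 (KRAB zinc finger genes), apart from the 2 domesticated retroelement genes, Arc and Peg10, at -0.79 and 2.98. The KRAB median includes Zfp819 and Zfp459, which passed the filter only through the Sox2 T258A library.

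Transcripts of retrotransposons themselves were not analysed here. Of the genes of the 2-cell-like state, which use retroviral elements as promoters or are held silent with them, 6 passed the filter and all 6 had a higher TPM by less than 2-fold (median 0.56), from Gm8300 (0.08, -0.11 to 0.27) to Zscan4d (0.91). Over all genes past the filter, 57.3% were higher and the median was 0.08. Of the 6 genes, 5 are Zscan4 copies. The other, Gm8300, passed the filter only through the Sox2 T258A library, which fixed its direction, and its interval included no difference. Gm8300 counts toward the 6 genes and their median. Under the filter were 8 genes, of which 7 had a lower TPM in Sox2 T258A cells, most of them at few reads. Zscan4d had 649 reads and a TPM of 10.3 in E14 and 816 reads and a TPM of 19.4 in Sox2 T258A cells, and the Zscan4 genes are near-identical copies whose reads could be split. Dux, an activator of that state, had 44 and 28 reads. Bglap3 had 87 and 8 reads, Tdpoz4 had 26 and 5, and Tdpoz3 had 28 and 10. Of the domesticated retroelement genes, 2 passed the filter. Peg10, an imprinted gene derived from a retrotransposon, was more than 2-fold higher, with 12481 reads and a TPM of 59.4 in E14 and 66105 reads and a TPM of 469.9 in Sox2 T258A cells (log2 ratio 2.98, 2.96 to 3.01). Arc had a TPM of 30.9 and 17.8 (-0.79), and Synb had 0 reads in both libraries.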

How the data were processed

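Polyadenylated RNA of 1 E14 library and 1 Sox2 T258A library was measured by Illumina sequencing. The submitters' processing notes name bcl2fastq 2.20.0, Trimmomatic, HISAT2 2.1.0 and StringTie 2.1.3b, and the builds hg19 and mm10. The gene table is for mm10 (GRCm38). The handling of strand and of shared reads is not given in the sources used here. Read counts were deposited unscaled, as whole numbers per gene. FPKM values, deposited beside them, are relative to transcript length and sequenced fragments. TPM values, also made by the authors, are relative to transcript length and to a fixed sum per library, and for all members they were a constant multiple of FPKM (1.94 and 2.15, within 1%).

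The TPM ratio was taken without a pseudocount for genes reaching a TPM of 10 in either library, with a threshold of 2-fold. Intervals of ratios are exact Clopper-Pearson intervals from the 2 read counts, placed on the TPM scale, those of levels are exact Poisson intervals, and those of differences between 2 members come from 4 read counts (Woolf). TMM (edgeR 4.0.16) and size factors (DESeq2 1.42.0) used genes with at least 10 reads in total. For the trend, medians in 20 bins of GC content and then of length were removed, with GENCODE M21 transcripts matched for 99.5% of the genes past the filter. Where several transcripts matched a gene, their mean length and GC content were used. The ratio of read counts scaled to the library total and its interval were tested on simulated Poisson counts. These hold counting error only, so the TPM ratio and variation from PCR copies or between cultures were not tested. Named genes are all members, list genes past 2-fold, the extremes of each list, and genes starting within 1 kb on the opposite strand. Single cell type markers, Prdm16, Mecom, Trim66, Bglap3, Dux, Tdpoz3, Tdpoz4 and Synb and the overlapping genes Zbtb45, Cers2 and Dclre1c were named after their values were seen. The same holds for Zfp568, Zfp932, Zfp445, Zfp809, Kdm1b, Lrif1 and Ubn2. The members and lists were chosen with earlier results of these data known.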

Additional observations from a re-analysis of the deposited data

How the results depend on the processing

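With 1 library per genotype no replicate could be left out, and variation between cultures is unknown. At this depth every member had at least 2076 reads in each library, and on the log2 scale the counting intervals were 0.029 (Trim28) to 0.175 (Suv39h2) wide, beside shifts of up to 0.14 from scaling. The number of members more than 2-fold higher (1, Atrx) and lower (0) was the same with read counts scaled to the total, TMM, size factors, centring on all genes or on the chromosome, FPKM, and pseudocounts of 1 and 0.1. TPM filters of 1 or none could not change it, since all members pass the filter of 10. The number higher became 0 after removal of the GC and length trend, for which the cause was not tested, and by construction also 0 at 3-fold and 2 at 1.5-fold. The number of members with a higher TPM (9) was 8 with the trend removed, when Cbx5 joined Setdb1, and 9 otherwise.

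The median log2 ratio of the members (0.45) was 0.31 with read counts scaled to the total and 0.31 with FPKM, 0.37 when centred on all genes and 0.40 with the trend removed. These shifts are partly those of all genes, whose median of 0.08 moved by -0.14 with the total and with FPKM. Of 90 values of single members under 9 settings, 44 stayed inside the counting interval and 46 moved out of it. Setdb1 was below 0 in all 9.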
